A study of Mus musculus with 2 samples.

Results

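The miR-29 family in the mouse adrenal gland comprised 4 of the 2202 annotated microRNA (miRNA) genes, Mir29a, Mir29b-1, Mir29b-2 and Mir29c, chosen by their names in the GENCODE M21 annotation. MicroRNA-seq, which reads RNAs short enough to be mature miRNAs, was done on total RNA of whole adrenal glands from female B6CASTF1/J mice aged 36 days. B6CASTF1/J is the first-generation hybrid of a laboratory strain and a wild-derived strain. There was 1 group of 2 libraries and no second tissue, age, sex or treatment. The labels call the libraries biological replicates 1 and 2 from separately numbered females, yet list 1 donor identifier for both. The spread between them may therefore not be a spread between animals.

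MiRNAs act by pairing the seed, bases 2 to 8 of the mature strand, with messenger RNAs, which lowers translation and stability of the message. The miR-29 family is best known for repressing messages of the extracellular matrix, among them collagens, elastin and fibrillin, and its level falls in fibrosis of heart, liver and kidney. In the adrenal gland such matrix surrounds the vessels and the cords of steroid-producing cells and forms the capsule. Each miRNA hairpin holds a 5p arm and a 3p arm, and the 3p arm of the miR-29 genes is the strand that carries the family's seed.

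The mature 3p strands are shown because they define the family and decide which reads can be told apart. Capitals mark the seed, and sequences are from RefSeq on GRCm38.p6, the assembly also called mm10.
miR-29a-3p of Mir29a: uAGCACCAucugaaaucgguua
miR-29b-3p of Mir29b-1 and Mir29b-2: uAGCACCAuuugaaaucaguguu
miR-29c-3p of Mir29c: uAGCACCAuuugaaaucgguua

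All 4 genes carried the seed AGCACCA, and of the 1738 mature entries in the RefSeq table only these 4 did, in 3 distinct sequences. Counting from the 5′ end of the 3p strand, miR-29a differed from miR-29c over 22 bases by 1 substitution, C10U. MiR-29a differed from miR-29b by 4 substitutions, C10U, G18A, U21G and A22U, so the strands diverged mainly at the 3′ end. The 3′ end of miR-29b reads AGUGUU, a motif reported in human cells to direct it to the nucleus. The strand of Mir29b-1 and that of Mir29b-2 were identical over all 23 bases. The 5p arms differed more, and these distinguish the genes that share a 3p strand.
miR-29a-5p: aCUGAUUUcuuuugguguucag
miR-29b-1-5p: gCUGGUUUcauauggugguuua
miR-29b-2-5p: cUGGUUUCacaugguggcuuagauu
miR-29c-5p: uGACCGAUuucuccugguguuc

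The genes lay in 2 clusters, and in each a miR-29b gene preceded its partner. On the minus strand of chromosome 6, Mir29b-1 (ENSMUSG00000065604.2, chr6:31063023-31063093) was followed after 275 bases by Mir29a (ENSMUSG00000065610.1, chr6:31062660-31062747). Mir29b-1 overlapped the long noncoding gene Gm27019 by 2 bases on its own strand, and no other annotated gene overlapped Mir29a. On the plus strand of chromosome 1, Mir29b-2 (ENSMUSG00000065412.3, chr1:195037040-195037120) was followed after 426 bases by Mir29c (ENSMUSG00000065548.1, chr1:195037547-195037634). Both chromosome 1 hairpins lay within an exon of the noncoding gene A330023F24Rik, in a transcript annotated as a retained intron. On the opposite strand both also lay within an exon of Cd46, a gene of a complement regulator.

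The hairpins are printed to show where each 3p arm, in capitals, sits.
Mir29a: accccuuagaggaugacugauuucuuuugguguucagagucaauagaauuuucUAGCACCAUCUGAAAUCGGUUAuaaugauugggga
Mir29b-1: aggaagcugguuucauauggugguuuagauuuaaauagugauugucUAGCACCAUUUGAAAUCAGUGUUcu
Mir29b-2: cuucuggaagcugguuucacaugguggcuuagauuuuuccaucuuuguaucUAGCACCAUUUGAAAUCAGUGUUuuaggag
Mir29c: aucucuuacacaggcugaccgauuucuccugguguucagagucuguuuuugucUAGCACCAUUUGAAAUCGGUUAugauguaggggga

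The longest stretch shared by the Mir29b-1 and Mir29b-2 hairpins was 25 bases and contained the whole 3p arm, against 22 bases between Mir29b-1 and Mir29c and 14 between Mir29a and Mir29c. No 18-base stretch of the Mir29a hairpin recurred in another miRNA hairpin of the annotation. Of the 22-base stretches, 5 of 50 in Mir29b-1, 4 of 60 in Mir29b-2 and 1 of 67 in Mir29c recurred in another family member. At 26 bases none recurred in any of the 4 genes. The predicted minimum folding energies were -34.1 kcal/mol for Mir29a, -34.8 for Mir29c, -31.1 for Mir29b-2 and -26.3 for Mir29b-1, the shortest hairpin.

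**Figure D1:**
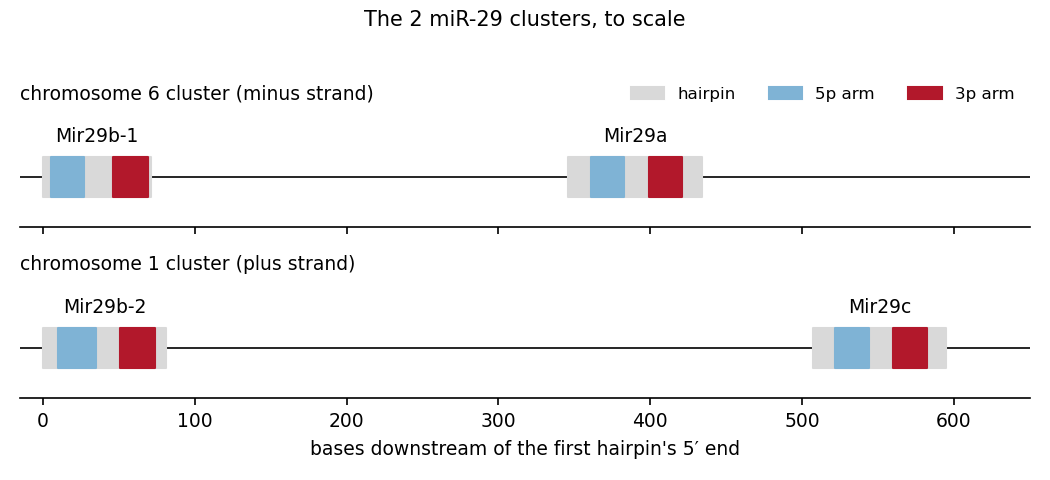
Map of both miR-29 clusters, drawn to scale in bases downstream of the 5′ end of the first hairpin, with hairpins in grey and the annotated 5p and 3p arms in colour. Hairpin pairs are separated by 275 bases on chromosome 6 and 426 on chromosome 1, with the miR-29b gene first in each.

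The reads counted for the sense strand of miRNA genes numbered 5397603 in replicate 1 and 3029977 in replicate 2. Levels are normalised read counts (CPM), the sense count of a gene for every 1000000 sense miRNA counts of its library, with 95% Wilson intervals that cover counting error only. A single count equals 0.185 CPM in replicate 1 and, in the shallower replicate 2, 0.330 CPM. As a check of the tissue label, the endocrine gene Mir375 had 28922 CPM in replicate 1 and 22246 CPM in replicate 2. Mir7b, also listed as endocrine, was lower, with 2569 CPM in replicate 1 and 3010 CPM in replicate 2. The endothelial gene Mir126a had 133209 and 69285 CPM in replicates 1 and 2. Genes of other tissues were counted as well. The hepatocyte gene Mir122 had 1503 CPM in replicate 1 and 146 CPM in replicate 2. The striated muscle gene Mir206 had 474 CPM in replicate 1 and 494 CPM in replicate 2, and Mir192, of kidney and gut, had 71.5 and 24.8 CPM. Further genes of other tissues had few or no counts. Mir1a-2, of striated muscle, had 11 and 2 counts, and Mir194-1, of kidney and gut, had 5 and 0. Mir1a-1, also of striated muscle, and the neuronal Mir124a-1 and Mir124a-3 had 0 in both libraries. Of the 2 strands of Mir194-1, 1 was identical to a strand of another gene. No RefSeq strand could be assigned to Mir1a-2, Mir124a-1 or Mir124a-3. These low counts do not show absence.

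Most reads counted for the family belonged to Mir29a, followed by Mir29c, while few were assigned to the pair of miR-29b genes, whose shared 3p strand is taken up below. Mir29a had 44835 counts in replicate 1 and 17975 in replicate 2. Its level was 8306 CPM in replicate 1 (8230 to 8383) and 5932 CPM in replicate 2 (5847 to 6019), a mean of 7119 ± 1679 CPM (SD, n = 2). It ranked 26 in replicate 1 and 29 in replicate 2 among all miRNA genes, near the top of the profile in both.

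Mir29c, whose mature strand differs from that of Mir29a by the single substitution above, had 8023 counts in replicate 1 and 3119 in replicate 2. It stood at 1486 CPM in replicate 1 (1454 to 1519) and 1029 CPM in replicate 2 (994 to 1066), a mean of 1258 ± 323 CPM (SD, n = 2). It ranked 60 and 68, and the intervals of the libraries did not overlap for it or for Mir29a.

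Mir29b-1, the neighbour of Mir29a, had 178 counts in replicate 1, which is 33.0 CPM (28.5 to 38.2), and 37 counts in replicate 2, which is 12.2 CPM (8.86 to 16.8). Mir29b-2, the neighbour of Mir29c, had 128 counts in replicate 1, at 23.7 CPM (19.9 to 28.2), and 31 counts in replicate 2, at 10.2 CPM (7.21 to 14.5). The means were 22.6 ± 14.7 and 17.0 ± 9.53 CPM (SD, n = 2 each), ranks 251 and 265. Both genes were lower in replicate 2 with no overlap of intervals between libraries, while in replicate 2 their own intervals overlapped each other.

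**Figure D2:**
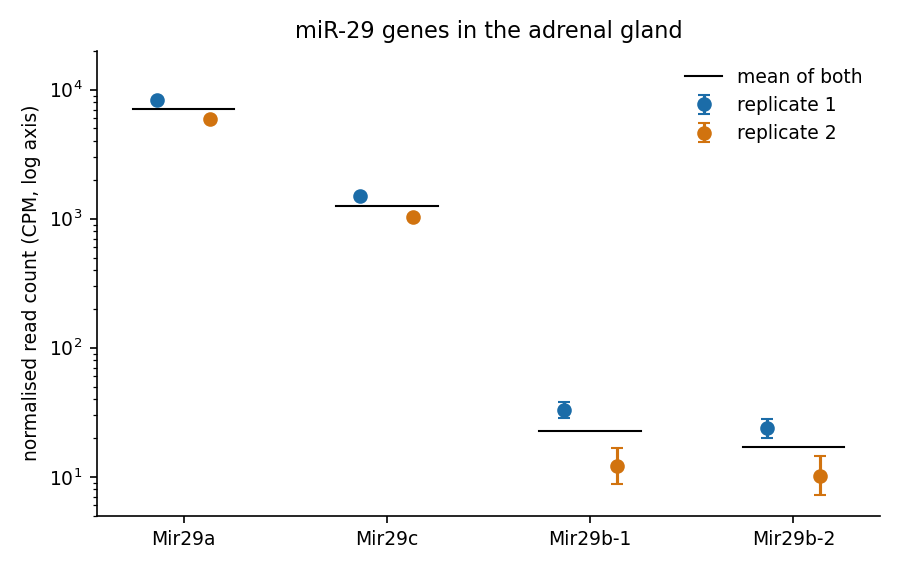
Level of each miR-29 gene in CPM on a log axis, with a point for each library, its 95% Wilson interval and a line at the mean. Mir29a lies between 5932 and 8306 CPM, Mir29c between 1029 and 1486 CPM, and the miR-29b genes between 10.2 and 33.0 CPM.

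All 4 genes reached 10 counts in each library, the minimum set for calling a gene detected, as did 15.4% of the 2202 genes (339 genes). The counts were the same with and without regard to strand for all 4, and none had an antisense count, although Cd46 is annotated opposite the chromosome 1 pair. Among detected genes 87.9% likewise had the same count both ways.

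In the order of levels, Mir29a stood above Mir29c by 5.68-fold in the geometric mean of the libraries, and Mir29c above Mir29b-1 by 61.6-fold. These steps in counted reads exceeded 2.26-fold, the 95% limit for a pair of genes under the pooled spread of the libraries. That spread had a coefficient of variation of 41.6%, from the common dispersion of edgeR. The limit covers the spread of genes between libraries. It does not cover error between genes within a library, such as reads that mapped to several places. Mir29b-1 and Mir29b-2 differed by 1.29-fold, inside that limit, and could not be ranked. Within the clusters the counted reads differed more: Mir29a over Mir29b-1 was 252-fold (217 to 292) in replicate 1 and 486-fold (352 to 671) in replicate 2. Mir29c over Mir29b-2 was 62.7-fold (52.6 to 74.6) in replicate 1 and 101-fold (70.6 to 143) in replicate 2.

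The low miR-29b counts cannot be read as low amounts of miR-29b. A read that is exactly miR-29b-3p matches both loci equally, and the tables hold reads that mapped to several places as 1 total that belongs to no gene. That total was 3984008 reads in replicate 1, or 28.5%, and 2302439 in replicate 2, or 30.6%, and the part of it that is miR-29b is not known. Which arm the counted reads of the miR-29b genes came from is not recorded in counts per gene. The mature strands of Mir29a and Mir29c each belonged to 1 gene, so a read of either whole strand matches a single miRNA gene.

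The same arrangement was examined across the 1022 genes to which RefSeq mature strands could be assigned by position. Of 57 genes that share some but not all mature strands with another gene, the class of both miR-29b genes, 39 were detected, with a median of 51.3 CPM. Among those 39, Mir29b-1 had 10 genes below it and Mir29b-2 had 6. Of 928 genes that share no mature strand with another of the 1022, 263 were detected, with a median of 156 CPM. Mir29a and Mir29c belong to this class. Of 37 genes with every mature strand shared, 5 were detected, with a median of 8.98 CPM. Strands of genes outside the 1022 were not compared, so a gene may share more strands than its class states. These are descriptions of the counted reads, and genes in a class are not replicates.

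Shares within the family refer to counted reads and leave out the miR-29b-3p reads that mapped to both loci. Together the 4 genes held 0.985% of the sense miRNA counts in replicate 1 (0.977 to 0.993%) and 0.698% in replicate 2 (0.689 to 0.708%). Within these counts Mir29a held 84.3% in replicate 1 (84.0 to 84.6%) and 84.9% in replicate 2 (84.5 to 85.4%), so the intervals overlapped. Mir29c held 15.1% (14.8 to 15.4%) and 14.7% (14.3 to 15.2%), also overlapping.

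By cluster, the chromosome 6 pair held 84.9% ± 0.316 of the family's counts and the chromosome 1 pair 15.1% ± 0.316 (SD, n = 2). The ratio of Mir29a to Mir29c, genes on different chromosomes, was 5.59 (5.46 to 5.72) in replicate 1 and 5.76 (5.55 to 5.99) in replicate 2. Replicate 1 over replicate 2, this ratio was 0.970-fold, with a counting interval of 0.927 to 1.01 that includes no change.

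The miR-29b genes held 0.576% of the family's counts in replicate 1 (0.515 to 0.644%) and 0.321% in replicate 2 (0.254 to 0.407%). Mir29a over Mir29b-1 in replicate 1 was 0.518 times its value in replicate 2 (0.364 to 0.739), and Mir29c over Mir29b-2 was 0.623 times (0.420 to 0.924). Mir29b-1 over Mir29b-2 was 1.39 (1.11 to 1.75) in replicate 1 and 1.19 (0.741 to 1.92) in replicate 2, a change of 1.17-fold (0.687 to 1.98) that includes no change. These intervals cover counting error only. With the pooled spread, which would allow a ratio of 2 genes to change by up to 5.10-fold between the libraries, each of these changes lay inside the limit. That limit was itself estimated from the differences between these libraries, so it cannot show that the ratios were unchanged.

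The libraries were then compared gene by gene, which compares these libraries and not conditions. After scaling by TMM, which sets the trimmed mean of the ratios to 0, the log2 ratio of replicate 1 over replicate 2 was 0.18 for Mir29a (counting SE 0.01) and 0.23 for Mir29c (SE 0.03). It was 1.12 for Mir29b-1 (SE 0.26) and 0.89 for Mir29b-2 (SE 0.29). These are 1.14-fold, 1.17-fold, 2.17-fold and 1.86-fold higher in replicate 1. Over the 434 tested genes, which have 10 or more counts when the libraries are added, the quartiles of the log2 ratio were -0.52 and 0.65, so Mir29a and Mir29c lay between the quartiles and the miR-29b genes above the upper one. The ratio was above 0 for all 4 and for 53.5% of the tested genes.

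Each gene was tested by an exact binomial test, two-sided, with p-values adjusted by Benjamini-Hochberg over the 434 genes, and all 4 were called higher in replicate 1. Adjusted p was 3.04e-47 for Mir29a, 1.25e-13 for Mir29c, 1.07e-05 for Mir29b-1 and 0.00225 for Mir29b-2 in this exact test. It sets counting error alone against the difference and called 58.5% of all tested genes, or 30.2% towards replicate 1 and 28.3% towards replicate 2. With total counts in place of TMM every log2 ratio moved up by 0.30, and the calls became 189 towards replicate 1 and 83 towards replicate 2, whereas TMM gave 131 and 123. With the pooled spread as the error, edgeR's exact test called none of the 4 (adjusted p of 0.999 to 1) and 0 of 434 genes, of which 24 had an unadjusted p under 0.05. The ratios of all 4 were also inside the 3.16-fold that this spread allows between the libraries. This spread was estimated from the same libraries that were compared, so it contains the difference under test. Few calls were possible with it, and their absence cannot show that the libraries were alike.

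**Figure D3:**
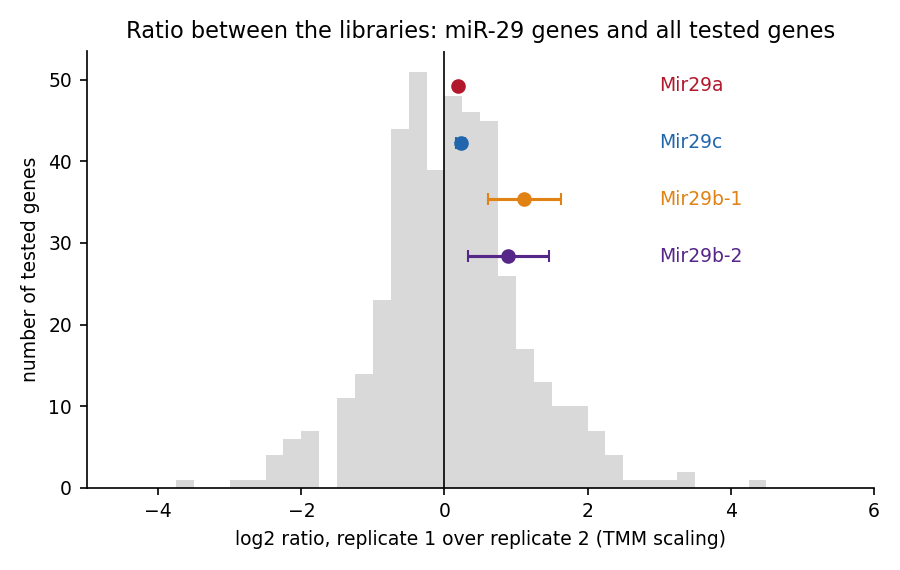
Log2 ratio of replicate 1 over replicate 2 with TMM scaling for the miR-29 genes (points with 95% counting intervals, placed at arbitrary heights) over a histogram of all 434 tested genes. Mir29a at 0.18 and Mir29c at 0.23 lie near 0, and Mir29b-1 at 1.12 and Mir29b-2 at 0.89 lie further towards replicate 1.

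Other measures differed between the libraries as well. Mir122 was 8.33-fold higher in replicate 1, and the smooth muscle genes Mir143 and Mir145a were 2.30-fold and 5.18-fold higher in replicate 2. The part of cell make-up in the miR-29 ratios was not tested, and in bulk tissue fewer cells of a type and less RNA per cell cannot be told apart. The miR-29 hairpins had a GC content of 38.6% for Mir29a, 35.2% for Mir29b-1, 39.5% for Mir29b-2 and 44.3% for Mir29c, below the median of 50.0% over the 284 genes whose added counts reach 100. With TMM, the other 66 such genes in that GC range had a median log2 ratio of -0.34, with quartiles of -0.56 and 0.43. Mir29a and Mir29c lay between these quartiles and the miR-29b genes above the upper one. The part of GC content in the miR-29 ratios was not tested.

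Likeness in level was measured as the distance between genes in log2(CPM + 1) over the 2 libraries. Nearest to Mir29a were Mir99b (distance 0.080, 8500 and 6239 CPM), Mir744 and Mir652. Nearest to Mir29c were Mir455 (0.184, 1367 and 935 CPM), Mir337 and Mir433. Nearest to Mir29b-1 were Mir377 (0.323), Mir365-2 and Mir383, and nearest to Mir29b-2 were Mir365-2 (0.083), Mir8112 and Mir202. With 2 libraries this likeness reflects mostly the level, and Mir365-2 appears for both miR-29b genes.

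**Figure D4:**
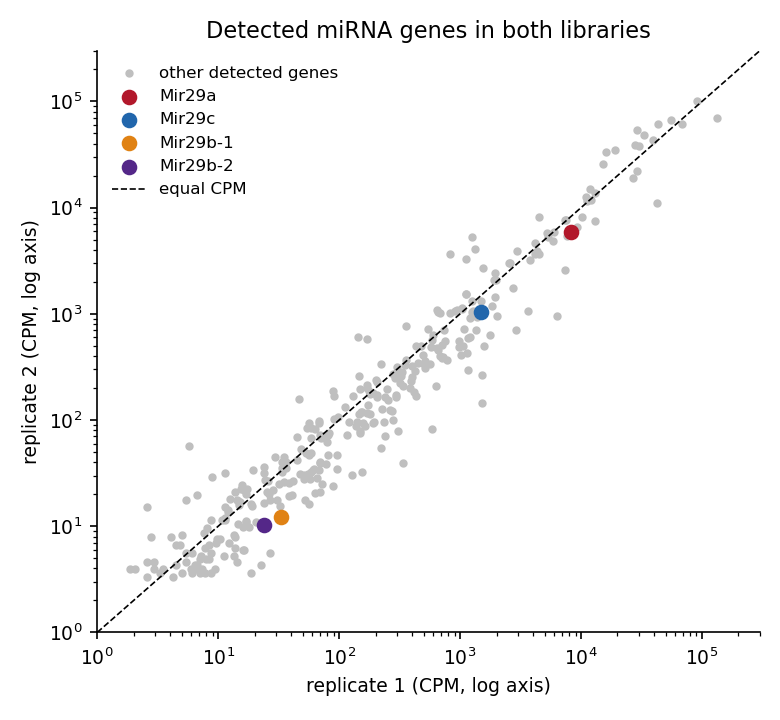
Level of each detected miRNA gene in replicate 1 (x axis) and replicate 2 (y axis), in CPM on log axes, with the 4 miR-29 genes in colour and a dashed line at equal CPM. All 4 lie below the line, Mir29a and Mir29c inside the body of points and the miR-29b genes towards its lower side.

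The family was set beside 15 other miRNA genes reported to act on matrix or fibrosis, of which 11 were detected. Mir143 at 41485 ± 17671 CPM and Mir21a, which promotes fibrosis in several organs, at 26772 ± 11071 CPM stood above Mir29a. Mir145a at 3254 ± 2833 CPM lay between Mir29a and Mir29c in the mean. It had 1251 CPM in replicate 1, below Mir29c at 1486, and 5257 CPM in replicate 2. Mir214 at 896 ± 894 CPM was below Mir29c in the mean. Its level was 1528 CPM in replicate 1, above Mir29c there, and 264 in replicate 2. Mir155 (359 ± 6.69 CPM), Mir30c-2 (274 ± 8.11), Mir30c-1 (184 ± 6.77) and Mir192 (48.1 ± 33.1) followed. Mir199b (17.3 ± 4.88 CPM) was close to Mir29b-2 in the mean, with Mir200b (9.44 ± 6.82) and Mir199a-2 (5.69 ± 2.44) below (SD, n = 2 each). Mir199a-1 and Mir133a-2 had 0 counts in both libraries, and Mir133a-1 and Mir133b had 1 count each over both. Every RefSeq strand assigned to Mir199a-1, Mir199a-2 and Mir199b, and 1 of 2 strands of Mir30c-1 and of Mir30c-2, was identical to a strand of another gene. Reads of a shared strand that fit more than 1 gene were not counted, so the places of these 5 genes in the order, and the 0 of Mir199a-1, are uncertain. No RefSeq strand could be assigned to Mir133a-1, Mir133a-2, Mir143 or Mir145a, so sharing was not examined for them.

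The sign of the list's median and the number of its calls depended on the scaling, which moves every log2 ratio by the same amount. Of its 11 tested genes, 3 were called towards replicate 1 (Mir214, Mir192 and Mir200b), beside 30.2% of all tested genes, and 7 towards replicate 2, beside 28.3%, in the exact binomial test with TMM. With total counts the calls were 3 and 4, and Mir155, Mir30c-1 and Mir30c-2 lost theirs. With the pooled spread none of the 11 was called, as for all 434 tested genes. The median log2 ratio of the list was -0.24 with TMM, beside 0.06 over all tested genes and 0.56 over the 4 miR-29 genes. That 0.56 lies between Mir29c at 0.23 and Mir29b-2 at 0.89. Mir29a, with most of the family's counts, was at 0.18. With total counts the list's median was 0.060, beside 0.37 over all tested genes. With both scalings the list's median was below that over all tested genes. Mir21a and Mir143, the most abundant of the list, were 2.25-fold and 2.30-fold higher in replicate 2, while Mir29a was 1.14-fold higher in replicate 1.

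The messages that the family can pair with were examined in the annotation, since no messenger RNA was measured. The complement of the seed, TGGTGCT, and its longer form with an A after it, TGGTGCTA, were searched on the transcript strand of the longest annotated 3′ untranslated region (UTR) of each protein-coding gene. Each TGGTGCTA is also a TGGTGCT. Of 20972 genes, 13.1% held TGGTGCT and 2.86% held TGGTGCTA. Of 6622 genes with UTRs between 962.5 and 2524.5 bases, the quartiles of the gene list below, 15.2% and 3.11% did.

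In a list of 31 genes reported as targets of the family, 27 held TGGTGCT and 21 held TGGTGCTA. Such matches are one way in which targets are first proposed, so these counts are no independent support for the list. Of the 22 matrix genes 18 held a match, with 1.12 matches per 1000 bases, against 0.106 over all genes. Over every annotated collagen gene, a group added with the list's counts known, 25 of 44 held TGGTGCT and 16 held TGGTGCTA, with 0.693 matches per 1000 bases. These 44 include the 14 listed collagens, of which 13 held TGGTGCT and 11 held TGGTGCTA, so the group is no independent check of the list.

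Matches are printed for 6 matrix genes with the match in capitals, as 30 bases of the transcript strand on GRCm38, to show the base pairing that the shared seed offers.
Col1a1, fibrillar collagen, chr11:94952523-94952552, plus strand: gtgggaaggaatttcTGGTGCTAtagaagc
Col3a1, fibrillar collagen, chr1:45348967-45348996, plus strand: ttcaaaatgtctcaaTGGTGCTAtaataaa
Col4a1, basement membrane collagen, chr8:11199754-11199783, minus strand: gccaccgtcacaacaTGGTGCTActccccc
Eln, elastin, chr5:134703729-134703758, minus strand: cgacctcatcaacgtTGGTGCTActgcttg
Fbn1, fibrillin, chr2:125301166-125301195, minus strand: tttctgttgtctgttTGGTGCTAgtaaatt
Lamc1, a laminin chain, chr1:153220061-153220090, minus strand: tattatctgacacacTGGTGCTAttaatta

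Among the collagens, Col5a1 held 4 matches, Col4a5 and Col5a3 held 3 each, and Col1a2 held none in the annotated UTR. Eln held 3 matches. Nid1, Sparc and Hspg2 held none. Outside the matrix, Tet3 and Tet1, which oxidise methylated cytosine, held 8 and 7 matches, and Dnmt3a, a DNA methyltransferase, held 5. Their UTRs were long, 5669, 7962 and 6696 bases. A match is a run of letters and not a shown site, and a UTR without one says nothing about pairing elsewhere. All 4 genes share the seed, so these letters do not tell which of them would pair with a message.

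**Figure D5:**
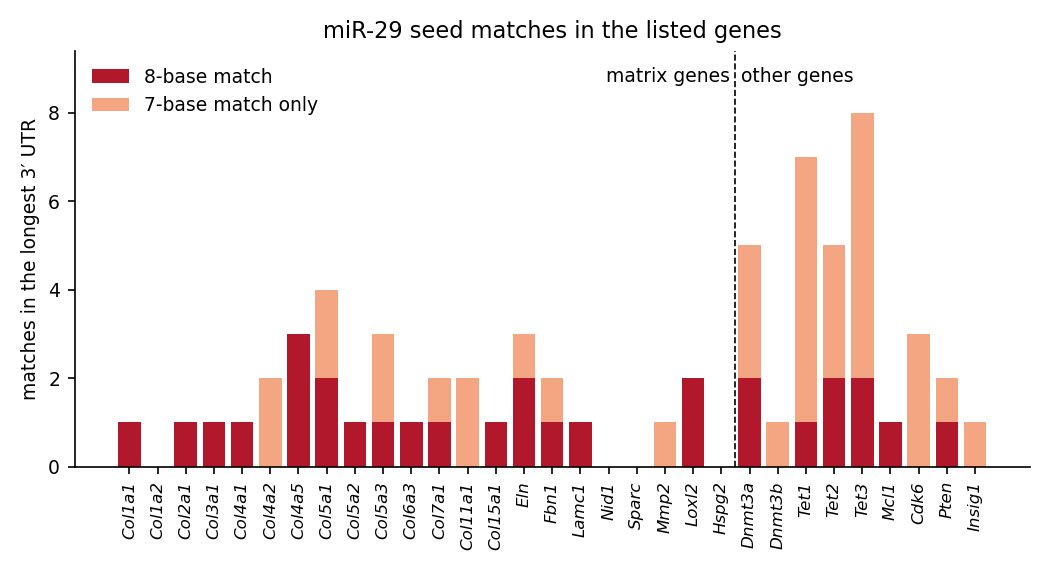
Number of seed matches in the longest annotated 3′ UTR of each of 31 listed genes, with TGGTGCTA matches in dark red and the remaining TGGTGCT matches in light red, matrix genes left of the dashed line. Most matrix genes hold 1 to 3 matches and Col5a1 holds 4, while Tet3 reaches 8.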

How the data were processed

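The deposited files are tables of raw read counts per miRNA gene for each of 2 adrenal libraries, with the mm10 assembly and GENCODE M21 annotation per the notes deposited with them. Which aligner, counter and trimming were used is not stated in those notes or the labels. The 3 unnamed columns of counts were read as without strand, sense and antisense, and the sense counts were used. Entries that name no gene (unmapped, several places, no feature, ambiguous) took 61.4% and 59.8% of reads and stayed out of library sizes and tests. All 2202 identifiers matched the annotation. Members and gene lists were chosen with earlier results of these data known.

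CPM used total sense counts. Ratios used TMM (edgeR 4.0.16, R 4.3.3), a prior of 0.5 counts, a minimum of 10 counts over both libraries, an exact binomial test (scipy 1.17.1) and Benjamini-Hochberg adjustment (statsmodels 0.14.6) at 0.05. With 1 group there was no contrast for edgeR's quasi-likelihood test. For the pooled spread, a common dispersion was estimated in edgeR from an intercept-only design on the same libraries. Any difference between them is thus counted as error. DESeq2 1.42.0 size factors were an alternative. Intervals for ratios of genes assume Poisson counts. The tables name no molecular identifiers, so PCR copies may be counted as reads. Counts were simulated with Poisson error only and 4-fold changes, and tested with the library totals used to draw them in place of TMM. On these the test recovered 175 of 195 changed genes and called 5 of 246 others. The spread between the real libraries was wider than Poisson error and their scaling was estimated, so these rates do not carry over to them. Hairpins were folded with ViennaRNA 2.7.2. Named were the members, the 3 detected genes nearest to each by level, and the listed genes. Figures were made with matplotlib 3.10.9.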

Additional observations from a re-analysis of the deposited data

How the results depend on the processing

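Leaving out a library gave family shares of 0.698% to 0.985% of all counts and chromosome 6 shares of 84.7% to 85.1% of the family. The family's share became 1.06% with counts without strand, where the library total is smaller, and 0.331% with all reads of the table as library size. Detected genes numbered 569 at a minimum of 1 count and 219 at 100 counts, where 2 of the 4 miR-29 genes (Mir29a and Mir29c) remained. The number of genes called between the libraries fell to 0 with edgeR's common dispersion as the error, where the 4 miR-29 calls were lost too. Otherwise it was 272 of 434 tested genes with total counts, 256 with DESeq2 size factors and 254 with a prior of 5 counts. With counts without strand it was 236 of 404, at a minimum of 100 added counts 228 of 284, and with no filter 248 of 769. Under these settings the 4 log2 ratios stayed above 0 and called. Mir29a ranged down to 0.11 with DESeq2 size factors and up to 0.49 with total counts. No paired analysis was possible because there is only 1 group. Leaving out a library leaves no ratio between libraries. For the listed matrix miRNA genes the median log2 ratio was -0.24 with TMM and -0.31 with DESeq2 size factors. With total counts it turned round, to 0.060. Each was below the median over all tested genes, which was 0.06, -0.008 and 0.37 in the same order. For all 4 miR-29 genes the pooled spread was wider than counting error. It was estimated from the same libraries and contains the difference tested, so the loss of the calls decides nothing.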
